A study of Mus musculus with 12 samples.

Results

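The genes of arginine transport and metabolism were followed in mouse peritoneal macrophages exposed to apolipoprotein A-I (apoA-I), which makes up most of the protein of high-density lipoprotein. They are 9 genes, taken as every probe whose gene name on the array was Nos2, Arg1, Arg2, Slc7a1, Slc7a2, Ass1, Asl, Odc1 or Gch1. These names gave 13 probes of the 41174 on each array, and 8 of the 9 genes were among the 16742 genes tested. RNA was measured on 12 one-colour arrays, 3 in each of 4 groups. The groups crossed genotype, C57BL/6 or MyD88-/- (called MyD88-null), with treatment, apoA-I or none (control). MyD88 is the adaptor protein that passes on signals from the interleukin-1 receptor and nearly all Toll-like receptors. All macrophages came from female mice of 10 weeks, were drawn into the peritoneum with thioglycollate and collected after 96 h. All 4 groups, controls included, were loaded overnight with cholesterol at 10 µg/ml and received 25 µg/ml polymyxin B, which binds endotoxin; the treated groups also received 10 µg/ml apoA-I for 2 h. The comparisons ask which transcripts respond to apoA-I and whether the response differs without MyD88. The labels do not say whether replicates came from separate mice, so the p-values measure only the spread between these samples.

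Arginine enters macrophages mainly through cationic amino acid transporters of the Slc7 family. Inducible nitric oxide synthase (Nos2), which needs tetrahydrobiopterin as cofactor, turns it into nitric oxide and citrulline, and Ass1 and Asl rebuild arginine from citrulline. The arginases Arg1 (cytosolic) and Arg2 (mitochondrial) split it into urea and ornithine, which Odc1 carries into polyamines. The balance between nitric oxide synthase and arginase is a classical way of describing macrophage activation states.

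Levels are log2 signals relative to the 75th percentile of the same array, so that 0 is that percentile. Different probes bind with different strength, and their levels are not compared with each other. Values in a series are for replicates 1, 2 and 3. A gene was called where its p-value from limma, a linear model fitted to all genes and adjusted by the Benjamini-Hochberg method, was under 0.05. The results turned on a few probes, shown by the first 30 of their 60 bases because these letters define what was measured:

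Slc7a2 probe: ttttttactgtggacaaaaaagacacagat
Arg2 probe: cacaggaacccctgttgtagggggattaac
Gch1 probe, brighter: gatggtgattgtgaaggacatagatatgtt
Gch1 probe, dimmer: ctgaacgaccctgttgggtcattctctaga
Nos2 probe: agaaacgttatcatgaagatatcttcggtg

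In the mm7 coordinates of the array files the Slc7a2 probe lies at chr8:39701203-39701262 (+), the Arg2 probe at chr12:77110462-77110521 (+) and the Nos2 probe at chr11:79041233-79041292 (+). The Gch1 probes lie at chr14:42490332-42490391 (-) and chr14:42475231-42475290 (-). Whether they lie in an exon or a UTR was not analysed here.

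Across genes, arrays of the same group had correlations of 0.915 to 0.979, and 57.6% to 73.6% of the probes of an array were well above background. The macrophage markers Adgre1, Itgam, Cd68, Csf1r, Lyz2, Msr1 and Mertk were well above background on all 12 arrays. The Myd88 level ran from 2.96 to 3.49 in C57BL/6 controls and from 1.40 to 2.10 in MyD88-null controls, and from 3.41 to 4.29 and 2.43 to 3.25 with apoA-I. Where the Myd88 probe lies relative to the deleted part was not determined. For a pair of replicate 2 arrays, the C57BL/6 control and the treated MyD88-null one, the free text gives the opposite treatment to the title. The titles were followed, and calls that were lost without these arrays are named with the genes. The C57BL/6 replicate 1 arrays, control and apoA-I, stood apart from the other 10 arrays in Ass1, as described with that gene.

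Of the 8 genes tested, apoA-I raised 1 in C57BL/6 cells (Slc7a2) and 2 in MyD88-null cells (Slc7a2 and Arg2), against 0.83% and 1.14% of all genes called, nearly all of them higher (0.812% and 1.13% of all genes). In the response averaged over both genotypes, 3 were higher (Slc7a2, Arg2 and Gch1) and none of the 8 was lower, against 3.14% of all genes called, 2.49% higher and 0.651% lower. With the replicate number as a block, 2, 2 and 3 of the 8 were called, Arg2 in C57BL/6 cells being the addition, against 3.4%, 4.07% and 11.5% of all genes. With the treatment of the free-text descriptions in place of the titles, 0 of all 16742 genes were called in these 3 comparisons, the 8 included. Scaling arrays to their median ended both calls in MyD88-null cells. The median averaged change was 0.49 over the 8 genes and 0.05 over all genes. Controls and treated cells did not overlap for 4 of the 8 genes in C57BL/6 cells (Slc7a2, Arg2, Gch1 and Odc1) and for 3 in MyD88-null cells (Slc7a2, Arg2 and Gch1), beside 13.1% and 11.6% of all genes.

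**Figure D1:**
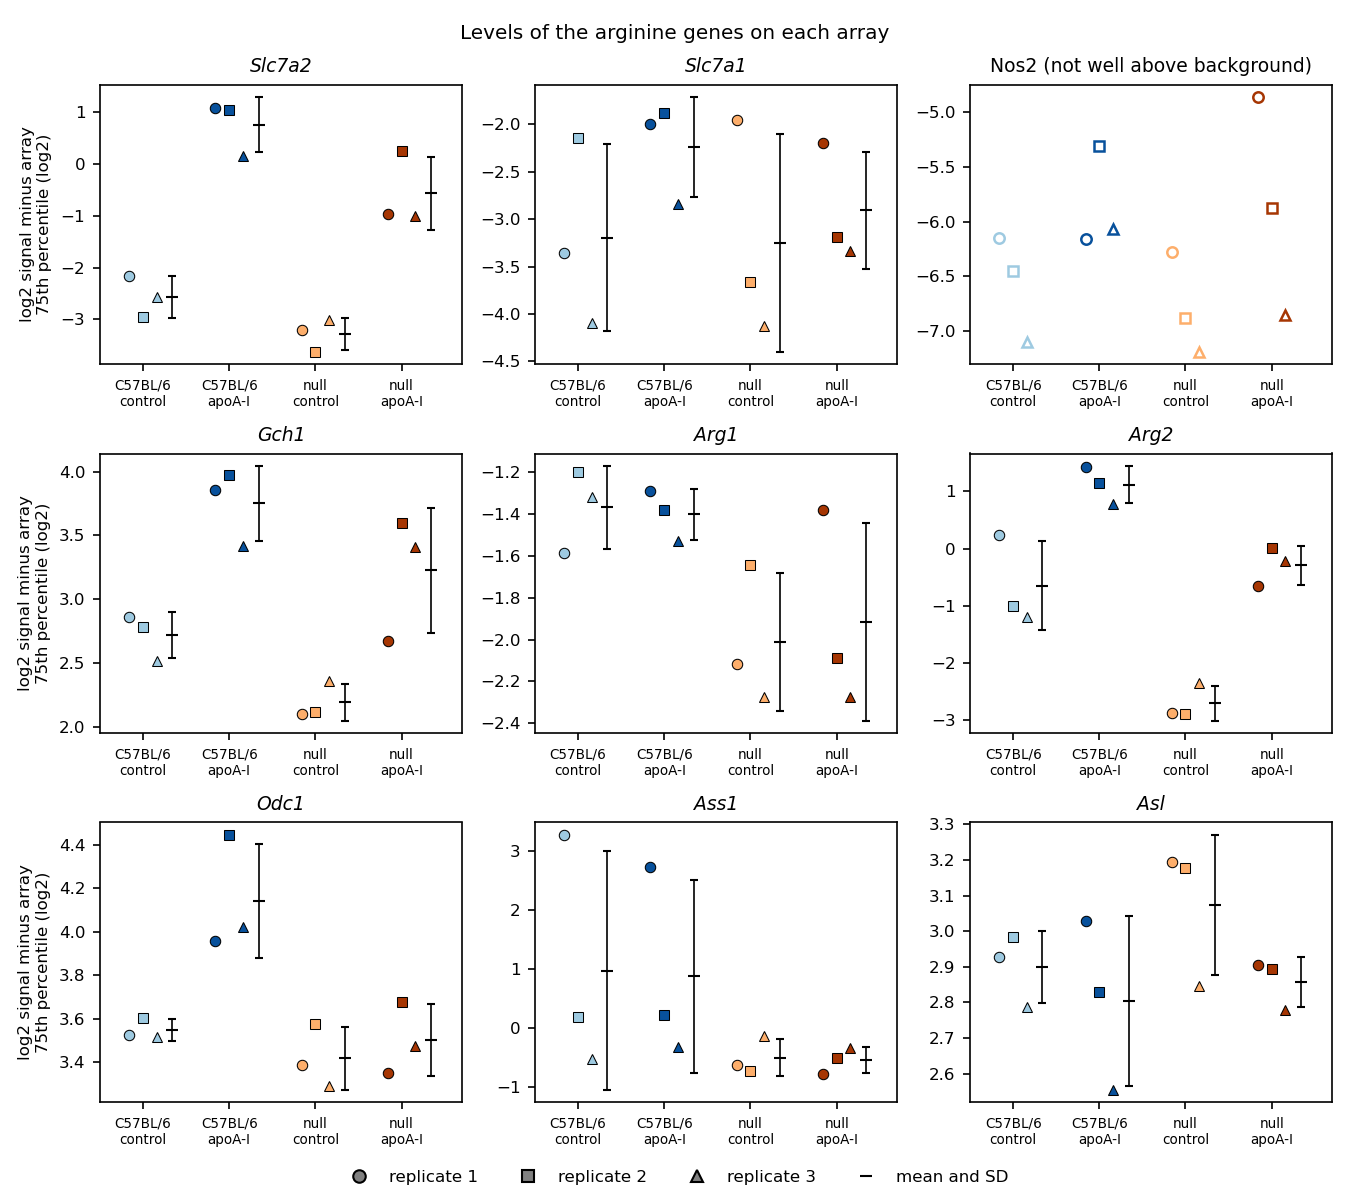
Level of each of the 9 genes on every array (y axis, log2 scale, 0 at the 75th percentile of that array; the range differs between panels) in the 4 groups, with replicates as symbols and mean and SD as bars. Slc7a2 and Arg2 sit higher with apoA-I in both genotypes, Ass1 is high on 2 arrays, and Nos2 (open symbols, no mean) was not well above background on any array.

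Slc7a2 encodes CAT2, the cationic amino acid transporter known to be induced in activated macrophages. C57BL/6 controls read -2.16, -2.96 and -2.57, and treated C57BL/6 cells 1.09, 1.05 and 0.15. MyD88-null controls read -3.20, -3.62 and -3.01, and treated MyD88-null cells -0.96, 0.25 and -0.996. Every treated array lay above every control array of either genotype. The rise was 10.0-fold in C57BL/6 cells (log2 change 3.33 ± 0.398 SE, limma adjusted p = 0.00262) and 6.56-fold in MyD88-null cells (2.71 ± 0.398, adjusted p = 0.00712). The difference between the responses was -0.61 with a 95% interval of -1.87 to 0.64, and its adjusted p was 1.00 in limma. Within replicate numbers the rise ran from 2.72 to 4.01 in C57BL/6 and from 2.02 to 3.88 in MyD88-null cells. Without replicate 1 of every group the changes were 3.37 and 2.95, with adjusted p of 0.132 and 0.157 on the 8 arrays left.

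Slc7a1 encodes CAT1, the transporter that most cell types use for basal arginine uptake. Its levels were -3.35, -2.14 and -4.09 in C57BL/6 controls and -1.99, -1.88 and -2.84 with apoA-I. MyD88-null controls read -1.95, -3.67 and -4.13, and treated MyD88-null cells -2.20, -3.19 and -3.33. The groups overlapped and the replicates of a control group spanned about 2 log2 units. The averaged change was 0.65 with a 95% interval of -0.35 to 1.65 (limma adjusted p = 0.653). The probe was dim, with intensities of 31.9 to 93.0 on the 12 arrays.

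Nos2, the inducible nitric oxide synthase, was not well above background on any of the 12 arrays. Its probe was printed on 10 spots per array, and 1 of the 115 usable spots was well above background, on C57BL/6 apoA-I replicate 2. The median spot intensity of an array ran from 3.93 to 9.96, whereas the dimmest probe well above background had an intensity of 10.6 to 31.0 across arrays. The Nos2 transcript was therefore not detected with this probe after 2 h of apoA-I in either genotype, and no fold change is given. In all, 17.4% of probes were well above background on no array.

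Gch1, GTP cyclohydrolase, makes the first step in the synthesis of tetrahydrobiopterin, the cofactor of nitric oxide synthases. Its level was 2.86, 2.78 and 2.52 in C57BL/6 controls and 3.85, 3.98 and 3.42 with apoA-I. MyD88-null controls read 2.11, 2.12 and 2.36, and treated MyD88-null cells 2.67, 3.60 and 3.41. The treated arrays were above the controls of their own genotype in all 6 replicate pairs, with MyD88-null replicate 1 the least. The change averaged 2.04-fold (log2 1.03 ± 0.188, limma adjusted p = 0.0156). In each genotype alone it was 1.03, and neither passed the threshold (adjusted p = 0.177 and 0.147). Both passed with scan day as a block (0.0483 and 0.045) and with slide as a random block (0.0245 and 0.0215). The second probe gave an averaged change of 0.87 with an adjusted p of 0.0505 over all probes. Without C57BL/6 apoA-I replicate 2 the averaged change was 0.98 and its adjusted p 0.0548. Without both arrays of conflicting description it was 0.95, with an adjusted p of 0.115.

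The promoter of Gch1 is shown because it was the only called gene with a promoter sequence at hand. That of Ass1 is shown because it carries the same kind of letters and was not called. The κB pattern below stands for sites of the NF-κB subunits, among them Rel and Nfkb1, whose part in these changes was not tested. They are 250 bases before the gene start from RefSeq on GRCm38.p6, and 4 of the 9 genes had such a window (Gch1, Ass1, Odc1 and Slc7a1). Capitals mark matches, on either strand, to a loose κB pattern (GGG and CC with any 5 bases between them), the E-box CACGTG or the TATA box TATAAA:

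Gch1, chr14:47189414-47189663 (-): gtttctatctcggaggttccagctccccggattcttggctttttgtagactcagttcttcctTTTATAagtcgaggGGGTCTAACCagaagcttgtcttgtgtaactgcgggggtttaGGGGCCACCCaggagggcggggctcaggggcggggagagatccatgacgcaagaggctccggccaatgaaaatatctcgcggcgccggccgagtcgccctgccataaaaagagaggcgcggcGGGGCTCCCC
Ass1, chr2:31470020-31470269 (+): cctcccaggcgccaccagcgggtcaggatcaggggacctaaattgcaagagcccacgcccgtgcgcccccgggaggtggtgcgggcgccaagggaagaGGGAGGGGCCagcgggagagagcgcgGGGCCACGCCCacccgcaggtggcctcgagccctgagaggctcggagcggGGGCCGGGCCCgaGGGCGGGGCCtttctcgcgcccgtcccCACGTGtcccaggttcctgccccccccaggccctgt

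Gch1 held 3 separate stretches matching the loose κB pattern, from -174 to -165, -132 to -123 and -10 to -1 relative to the start, and a TATAAA on the other strand from -188 to -183. Ass1 held several overlapping matches and a CACGTG from -36 to -31. Odc1 and Slc7a1, neither called in the main fits, held the loose pattern too. Of 32851 mouse promoter windows of 300 bases, 50.8% held the loose κB pattern, so its presence does not mark these genes out. The strict κB consensus decamer, held by 0.155% of windows, matched none of the 4 genes. Also searched were TGANTCA (7.81% of windows), TGACGTCA (1.79%), an interferon-response pattern (GAAA repeated after any 2 bases, 3.44%) and TTGCNNAA (10.8%), of which TGANTCA occurred once, before Slc7a1. Across all windows CACGTG was in 7.15% and TATAAA in 13.6%.

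Arg2, the mitochondrial arginase, was the second gene to rise. Its level was 0.24, -1.01 and -1.19 in C57BL/6 controls and 1.43, 1.14 and 0.78 with apoA-I. MyD88-null controls read -2.87, -2.89 and -2.35, and treated MyD88-null cells -0.66, 0.01 and -0.22. The arrays of each genotype separated by treatment, and at each treatment all MyD88-null arrays were below all C57BL/6 arrays. The probe was dim in MyD88-null controls, with intensities of 46.3, 79.9 and 243.7. The rise was 5.31-fold in MyD88-null cells (log2 change 2.41 ± 0.378, limma adjusted p = 0.0105). In C57BL/6 cells it was 3.40-fold (1.77 ± 0.378), with an adjusted p of 0.0816, and of 0.0458 with the replicate number as a block. Without C57BL/6 control replicate 1, the highest control, the C57BL/6 change was 2.21 with an adjusted p of 0.0117. In MyD88-null cells the call was lost without MyD88-null control replicate 1 or 2 or without MyD88-null apoA-I replicate 2 (adjusted p 0.0553, 0.0592 and 0.0648). Without both arrays of conflicting description it was also lost (2.26, adjusted p 0.104). The averaged change was 2.09 ± 0.267 (adjusted p = 0.00164), and the difference between the genotypes' responses was 0.64 with a 95% interval of -0.54 to 1.83.

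Arg1, the cytosolic arginase and the usual mark of alternatively activated macrophages, was not called in any comparison. Its level was -1.59, -1.20 and -1.32 in C57BL/6 controls and -1.29, -1.38 and -1.53 with apoA-I. MyD88-null controls read -2.12, -1.64 and -2.28, and treated MyD88-null cells -1.38, -2.09 and -2.28. Treated and control arrays overlapped in both genotypes, and the averaged change was 0.03 with a 95% interval of -0.39 to 0.45. The difference in response between Arg1 and Arg2 was not itself tested.

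Odc1, ornithine decarboxylase, is the rate-limiting enzyme of polyamine synthesis. Its brightest probe read 3.53, 3.61 and 3.52 in C57BL/6 controls and 3.96, 4.44 and 4.02 with apoA-I, without overlap. In MyD88-null cells the controls, at 3.39, 3.58 and 3.29, overlapped the treated arrays, at 3.35, 3.68 and 3.48. The change was 0.59 ± 0.193 in C57BL/6 cells (limma adjusted p = 0.342) and 0.08 ± 0.193 in MyD88-null cells, and their difference was -0.51 with a 95% interval of -1.12 to 0.10. All 3 Odc1 probes had positive changes in both genotypes, with averaged changes of 0.34, 0.37 and 0.47, and none was called. The second probe changed by 0.59 in C57BL/6 and 0.14 in MyD88-null cells, and the third by 0.50 and 0.44. The differences between the responses were -0.46 and -0.06 for these probes. On the third probe, C57BL/6 controls (2.10 to 2.81) overlapped treated C57BL/6 cells (2.57 to 3.36). With slide as a random block the brightest probe was called in C57BL/6 cells (0.62, adjusted p = 0.0355).

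**Figure D2:**
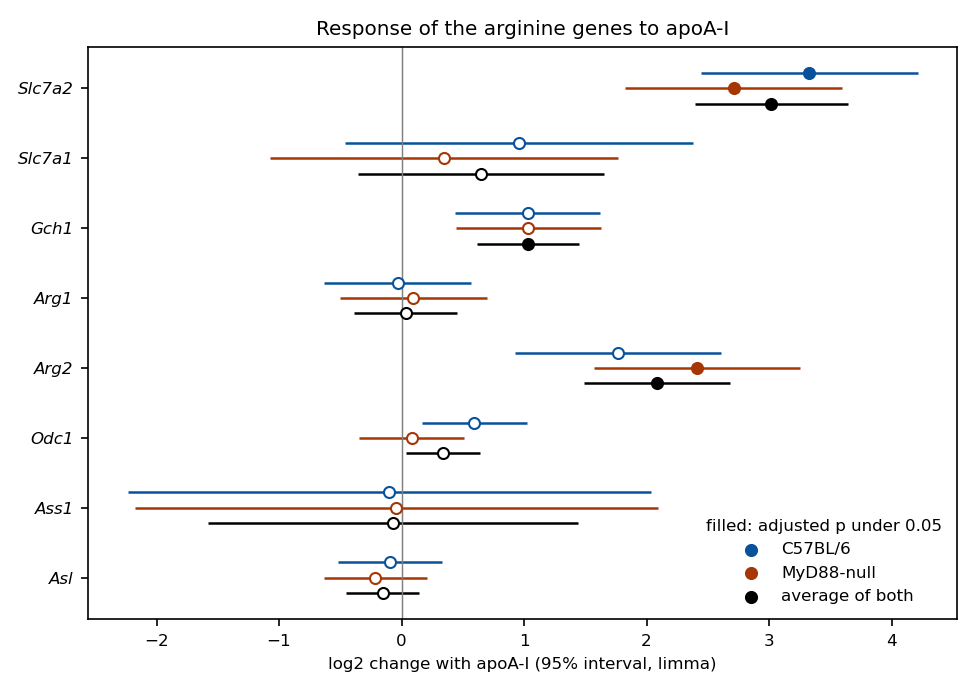
log2 change with apoA-I (x axis) and its 95% interval from limma for the 8 genes tested, in C57BL/6 cells, in MyD88-null cells and averaged; filled points have an adjusted p under 0.05. Only Slc7a2 is filled in all 3 comparisons, and the interval of Ass1 is the widest of the 8.

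Ass1, argininosuccinate synthase, is the limiting step in rebuilding arginine from citrulline. Its brighter probe read 3.27, 0.19 and -0.52 in C57BL/6 controls and 2.73, 0.23 and -0.32 with apoA-I. MyD88-null controls read -0.62, -0.73 and -0.14, and treated MyD88-null cells -0.78, -0.50 and -0.34. Both C57BL/6 replicate 1 arrays were high, at a mean 10.2-fold above the other 10 arrays, whatever the treatment. The second Ass1 probe repeated this, with 2.98 and 2.51 on those arrays against -1.15 to -0.27 on the other 10. The MyD88-null replicate 1 arrays were not high. With all arrays the averaged apoA-I change was -0.07 with a 95% interval of -1.58 to 1.44. Leaving out replicate 1 of every group, the group means were -0.17 and -0.05 in C57BL/6 cells without and with apoA-I and -0.43 and -0.42 in MyD88-null cells.

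The 3 genes with levels most like Ass1 over the 12 arrays were C4b, Ly6c1 and Ly6a (r = 0.990, 0.980 and 0.971), a complement component and a pair of Ly6 surface proteins. Ly6c1, carried by some lymphocytes and endothelial cells, read 3.86 and 3.42 on the C57BL/6 replicate 1 arrays and -0.19 to 0.66 on the other 10. These correlations rest on those 2 arrays. Over all genes tested, 25 (0.149%) were more than 1 log2 unit higher on both of these arrays than on any other, and 5 were more than 2 units higher: Ly6c1, Hp, Ass1, Treml4 and Slc39a4, named after their values were seen. The summed macrophage markers were 9.69 and 9.65 on those arrays, within the range of 9.10 to 10.30 over all arrays. The summed T cell markers were 0.66 and 0.64, within -0.45 to 1.38. Summed mesothelial and fibroblast markers were 6.05 and 6.38, below the 7.33 to 7.95 of the other C57BL/6 arrays. The MyD88-null replicate 1 arrays, not high in Ass1, were equally low in these markers, at 6.08 (control) and 6.04 (apoA-I). All MyD88-null arrays ran from 5.78 to 7.86. Summed B cell markers were 3.16 and 3.00, against 2.05 to 3.13 on the other 10 arrays. The part of these markers in the Ass1 levels was not tested. In bulk RNA a change in the number of cells of a type and a change in RNA per cell cannot be told apart.

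**Figure D3:**
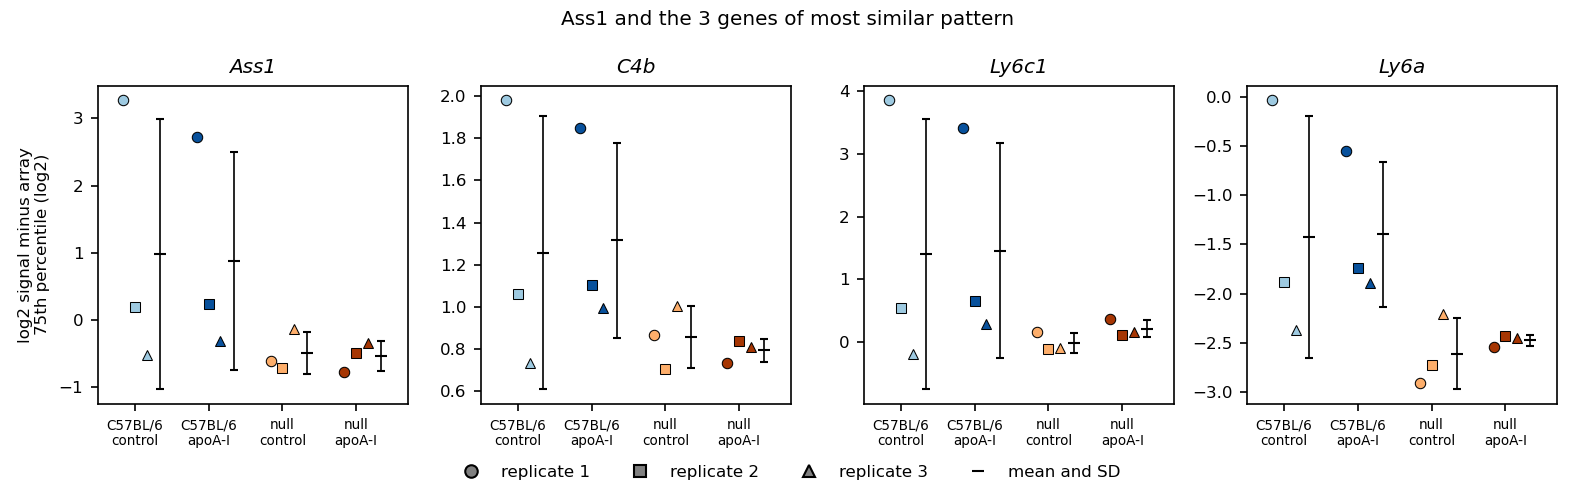
Level of Ass1, C4b, Ly6c1 and Ly6a (y axes, log2 scale, 0 at the 75th percentile of that array) on every array in the 4 groups, with replicates as symbols and mean and SD as bars. In each panel the C57BL/6 replicate 1 arrays, control and apoA-I, are the highest of the 12.

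Asl, argininosuccinate lyase, completes the citrulline route. Its levels lay between 2.56 and 3.20 on all 12 arrays, with group means of 2.90 and 2.80 in C57BL/6 cells without and with apoA-I and 3.07 and 2.86 in MyD88-null cells. The groups overlapped, and the averaged change was -0.16 with a 95% interval of -0.45 to 0.14.

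Between genotypes none of the 8 genes was called, in control cells or with apoA-I, where 0.0956% and 0.0657% of all genes were called, nor with the replicate block. At an unadjusted p under 0.05 there were 2 in controls (Arg2 and Arg1) and 3 with apoA-I (Arg2, Odc1 and Slc7a2), against 3.51% and 3.92% of all genes. Arg2 was 4.14-fold lower in MyD88-null controls (log2 change -2.05 ± 0.378, unadjusted p = 0.000273 and adjusted p = 0.115 from limma). It was lower in all 3 replicate pairs, by 3.11, 1.88 and 1.16, and with slide as a random block its adjusted p was 0.0316. With apoA-I it was 2.65-fold lower (-1.41 ± 0.378, adjusted p = 0.916). MyD88-null and C57BL/6 controls did not overlap for 4 of the 8 genes (Arg1, Arg2, Gch1 and Slc7a2, each lower in MyD88-null cells), beside 10.3% of all genes. Treated cells did not overlap for 3 (Arg2, Ass1 and Odc1), beside 5.62%. For Ass1 the nearest treated arrays read -0.324 in C57BL/6 and -0.342 in MyD88-null cells. The other Odc1 probes, not used for the gene, overlapped between treated genotypes, with unadjusted p of 0.0538 and 0.615 from limma. The median difference of the 8 genes was -0.59 in controls and -0.65 with apoA-I, against 0.02 and 0.07 over all genes. Mast cell and B cell markers ran the same way at both treatments, with 1 of 5 and 0 of 5 differences positive. Over all genes 8817 of 16742 differences were positive in controls and 9764 with apoA-I. In controls, positive differences were also 0 of 2 for dendritic cell, 2 of 7 for macrophage, 1 of 5 for T cell and 1 of 5 for neutrophil markers. With apoA-I these were 1 of 2, 2 of 7, 4 of 5 and 4 of 5. Mesothelial and fibroblast markers had 3 of 9 and 4 of 9 positive, and resident peritoneal macrophage markers 2 of 3 at both. The summed level of 5 of 6 mast cell markers was 2.10 to 2.44 in C57BL/6 controls and 1.14 to 2.02 in MyD88-null controls. That of all 5 B cell markers was 2.92 to 3.16 and 2.17 to 2.38. With apoA-I the ranges were 2.50 to 2.64 and 1.17 to 1.98 for mast cell markers, and 2.97 to 3.1 and 2.05 to 2.89 for B cell markers. The part of any of these markers in the genotype differences was not tested. The interaction was called for none of the 16742 genes, with 196 (1.17%) at an unadjusted p under 0.05 and 2 called with slide as a random block.

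The genes most like Arg2 over the 12 arrays were Cxcl3, Clec4e and Sod2 (r = 0.991, 0.988 and 0.987), a neutrophil chemokine, a C-type lectin receptor and mitochondrial superoxide dismutase. Those most like Slc7a2 were Eid3, Bcl2a1b and Tnfrsf1b (r = 0.981, 0.981 and 0.975), the last of these a receptor for tumour necrosis factor. Those most like Gch1 were Ell2, Tank and Spryd7 (r = 0.992, 0.985 and 0.983). The averaged changes of these 9 ran from 1.06 for Spryd7 to 5.92 for Cxcl3 on the log2 scale. In MyD88-null controls Cxcl3 read -6.76, -6.94 and -5.33, where the undetected Nos2 probe read -6.28, -6.88 and -7.19. The size of the Cxcl3 change is therefore uncertain. As the 9 were picked for following genes that were higher with apoA-I on the same arrays, their direction was fixed by that choice. Slc7a2, Arg2 and Gch1 correlated with each other at 0.90 to 0.94 over the same arrays, which share their treatment groups. The genes most like Odc1 were Car2, Id3 and Rdh10 (r = 0.935, 0.917 and 0.914), and those most like Asl were H2-Ke6, Cln6 and Selenoo (r = 0.955, 0.949 and 0.944). For Arg1 they were Lnx1, Igkv8-16 and Sltm (r = 0.908, 0.904 and 0.879). For Slc7a1 they were Cel, Lce1m and Lhx4 (r = 0.991, 0.980 and 0.979). Slc7a1 and these genes were lowest on the control replicate 3 arrays of both genotypes. Those arrays had the highest 75th percentiles of intensity of the 12, at 1408 and 1241. The part of array brightness in these correlations was not tested.

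Of the other genes of these pathways none was called. This held for the 21 measured genes of arginine, ornithine and proline transport and metabolism in all 6 comparisons, and their median averaged change was 0.04. Among them the averaged change of Slc3a2, the heavy chain that pairs with several Slc7 transporters, was 0.57 ± 0.234 (limma adjusted p = 0.314, 0.0183 with the replicate block), and that of Slc7a7, which exports arginine, 0.39 ± 0.119 (adjusted p = 0.143, 0.0422 with the block). Ornithine aminotransferase (Oat) was at -0.03. None of 13 polyamine genes was called (median 0.01), with spermine oxidase (Smox) at -0.01 and the acetyltransferase Sat1 at 0.25. None of 12 tetrahydrobiopterin and nitric oxide genes was called (median -0.07), with the later enzymes of tetrahydrobiopterin synthesis, sepiapterin reductase (Spr) and Pts, at 0.02 and -0.38. Cps1, Otc, Ddah1 and Nos1 were not tested because their probes were too dim.

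**Figure D4:**
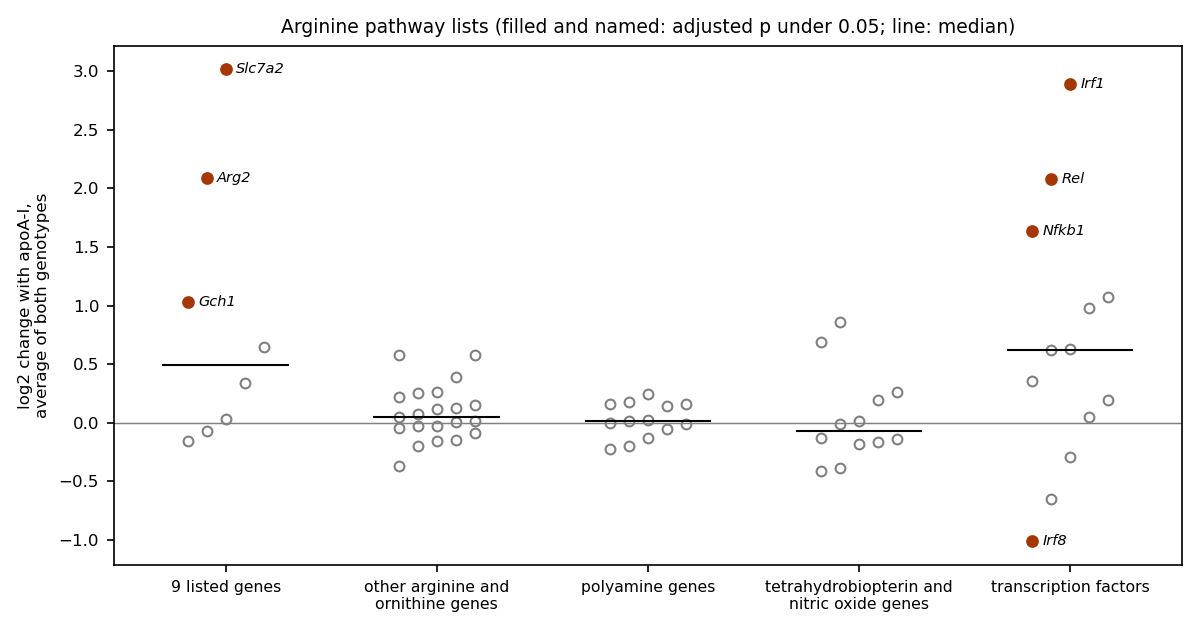
Averaged log2 change with apoA-I (y axis) of each measured gene in 5 lists (x axis), with the median as a line; filled, named points have an adjusted p under 0.05. Genes were called in the lists of the 9 genes and of transcription factors, and none in the other 3.

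Of 13 transcription factors with known sites in the Nos2 or Arg1 genes, 3 were called higher and 1 lower in the averaged response, against 2.49% and 0.651% of all genes, and the median was 0.62 against 0.05 over all genes. Irf1, which drives interferon-responsive genes, rose by 2.21 ± 0.285 in C57BL/6 cells (limma adjusted p = 0.0041) and by 3.58 ± 0.285 in MyD88-null cells (adjusted p = 0.00018). Rel rose by 2.41 ± 0.41 in C57BL/6 cells (adjusted p = 0.0257) and by 2.08 ± 0.29 on average (adjusted p = 0.003), and Nfkb1 by 1.63 ± 0.372 on average (adjusted p = 0.0444). Irf8, a macrophage lineage factor, fell by 1.01 on the log2 scale (adjusted p = 0.0379). Leaving out each of the 12 arrays in turn, the averaged calls of Irf1 and Rel were kept in 12 of 12 fits, that of Nfkb1 in 3 and that of Irf8 in 2 (adjusted p up to 0.13 and 0.111). The call of Rel in C57BL/6 cells was kept in 7, being lost without any 1 of the C57BL/6 arrays except control replicate 3. Under the other 12 settings, the averaged call was kept in 11 for Irf1, 8 for Rel, 6 for Nfkb1 and 7 for Irf8, and that of Rel in C57BL/6 cells in 4. With normexp background correction Rel was at 0.77 on average and 0.78 in C57BL/6 cells (adjusted p = 0.452 and 1.00). Without both arrays of conflicting description Irf1 and Rel were called on average, and Irf1 alone in C57BL/6 cells. Stat6, which acts on Arg1 downstream of interleukin-4, was at 0.04. With the replicate block 8 of the 13 were called in the averaged response, against 11.5% of all genes. The dendritic cell markers Flt3 and Zbtb46 also ran higher with apoA-I: their summed level was -2.34 to -0.86 in C57BL/6 controls and -0.79 to 0.20 with apoA-I, and -3.50 to -0.98 and -1.39 to 0.01 in MyD88-null cells. Neither was called (Zbtb46 was at 1.60 on average, limma adjusted p = 0.191, 0.0105 with the block), the third marker Cd209a was above background on 0 arrays. Averaged changes were also positive for 5 of 5 T cell markers (median 0.35, with Cd3e and Lck called with the block), 5 of 5 measured neutrophil markers (median 0.24) and 9 of 9 mesothelial and fibroblast markers (median 0.25), and for 2 of 7 macrophage markers (median -0.05). The summed levels of controls and treated cells overlapped for the T cell and the mesothelial and fibroblast markers in both genotypes, and for the neutrophil markers in C57BL/6 cells, whereas MyD88-null cells read 0.21 to 0.39 without and 0.41 to 0.78 with apoA-I. For mast cell markers 4 of 5 were positive (median 0.20), and their summed level, given above, did not overlap between controls and treated cells in C57BL/6. B cell markers had 4 of 5 positive (median 0.05) and resident peritoneal macrophage markers 2 of 3 (median 0.13). The 1 NK cell and 1 eosinophil marker tested were at 0.67 and 0.48. Over all genes 9234 of 16742 averaged changes were positive. The part of these markers in the responses was not tested.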

How the data were processed

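RNA (500 ng, Cy3) from 12 macrophage samples was hybridised to one-colour Agilent arrays. Per the file headers, the deposited processed intensities are Cy3 signals after background correction within each array (Agilent Feature Extraction 9.5, per the submitters' processing notes). They were not scaled between arrays, and their 75th percentiles ran from 199.5 to 1408. A deposited table of processed values followed the log10 intensity of each array (r 0.99257 to 0.99974). The sources used here do not name its normalization or centring; it served as an alternative.

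Spots of a probe were averaged without outlier flags, and log2 values were taken from the deposited intensities relative to each array's 75th percentile. A probe was kept where some group had it well above background on every array (24350 probes). The probe of highest mean stood for a gene (16742 genes). A mean per group was fitted with limma 3.58.1 in R 4.3.3, with 8 residual degrees of freedom, for 6 comparisons. P-values were two-sided, with Benjamini-Hochberg adjustment over all genes. The code was tested on simulated data. The members, lists and named genes were chosen with earlier results of these data known: all 9 members, list genes past the threshold with others to show the range, and the 3 genes of highest correlation with each member. Probes were named through RefSeq (GRCm38.p6). Marker sums are log2 of summed linear levels.

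Replicate numbers in the labels served as a block in an alternative. Deviations from group means correlated at 0.296 to 0.859 in all 18 same-numbered pairs and at -0.812 to 0.547 in the 36 others. Replicate 3 arrays were alone on scan day 3 and on slides 4 and 5. There the replicate number cannot be told apart from scan day, slide or the software version of grid placement. The file headers give that version as 9.5.3.1 for replicate 3 and 9.5.1.1 for the others. The 75th percentiles ran from 604 to 1408 on replicate 3 arrays and from 199.5 to 591 on the others. Slides 1 and 2 held only replicates 1 and 2 respectively, and slide 3 held both. Alternatives changed background correction, scaling, filter, probe choice, blocks (replicate, slide, scan day), the conflicting labels and each array in turn. The number of arrays limits precision.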

Additional observations from a re-analysis of the deposited data

How the results depend on the processing

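Of the member results, 1171 kept their side of the threshold under an alternative, 10 newly passed it and 19 no longer did. No result called in the main fit or in the alternative changed direction. Uncalled results could change sign and are counted in the 1171. The Slc7a1 difference between control genotypes did so in 3 of 12 fits leaving out an array and in 7 of 13 other settings. In C57BL/6 cells 1 gene was called. The count was 2 with the replicate block, 2 with scan day as a block, 4 with slide as a random block, 0 with the treatment as in the descriptions, 0 without replicate 1 of every group (added after seeing the data), and 1 to 2 on leaving out single arrays. In MyD88-null cells 2 were called. The count was 0 with median scaling, 0 with the descriptions' treatment, 1 without both arrays of conflicting description, 1 without replicate 1 of every group, and 1 to 3 on leaving out single arrays; scan day and slide as blocks added Gch1. Averaged over genotypes 3 were called, 0 with the descriptions' treatment and 2 to 3 on leaving out single arrays. Between control genotypes the count of 0 became 1 (Arg2) with slide as a random block. With the replicate block the call of Arg2 in C57BL/6 cells was added, and no other member call changed. The block moved the number of all genes called from 139 to 570 in C57BL/6, 191 to 682 in MyD88-null and 526 to 1929 on average, and the genotype comparisons from 16 to 99 and 11 to 38. Median scaling moved the median of all genes to -0.40 in MyD88-null cells and -0.21 on average; under it Slc7a2 and Arg2 in MyD88-null cells changed by 2.26 and 1.96 (adjusted p = 0.101 and 0.219). Gch1 averaged 0.77 there (adjusted p = 0.533). Without the filter on dim probes Gch1 had an adjusted p of 0.0522. The list genes called, other than the 9, were 2 in C57BL/6 cells (0 to 5 under the alternatives), 1 in MyD88-null cells (0 to 5) and 4 on average (0 to 10, the most with the replicate block); without both arrays of conflicting description they were 1, 1 and 2. Causes were not tested.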
